A study of Homo sapiens with 6 samples.

Results

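Mitochondrial RNA is made, protected and degraded by proteins that are all encoded in the nucleus, and 10 of their genes were followed here in human HT1080 fibrosarcoma cells exposed to IFNβ. The genes were chosen by symbol, through the Ensembl gene ID of each row, from the 62710 genes of the expression table: PNPT1, SUPV3L1 and REXO2 for decay, LRPPRC and SLIRP for mRNA stability, and POLRMT, TFAM, TFB1M, TFB2M and MTERF1 for transcription. All 10 were found and all 10 passed the expression filter used for testing, a mean of at least 0.1 FPKM, which 20716 genes passed. HT1080 is an established line, grown in high-glucose DMEM with 10% fetal bovine serum. RNA was sequenced in 3 untreated samples and in 3 samples given human IFNβ at 20 ng/mL for 24 h, and the labels give no other agent or genetic change in either group. The study's cell culture methods likewise name human IFNβ for its human lines. Its sequencing methods name mouse IFNβ instead, for this line and a mouse line together. Which of these was used for the sequenced samples cannot be told apart here. The comparison asks which transcripts the cytokine alters.

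As background, mitochondrial DNA is transcribed from both strands into long precursors by the single-subunit RNA polymerase POLRMT, with TFAM bending the promoter DNA and TFB2M opening it. The precursors are cut into rRNAs, tRNAs and mRNAs, the LRPPRC and SLIRP proteins hold the mRNAs in a stable form, and unwanted RNA is unwound by the helicase SUPV3L1 and digested from its 3′ end by PNPT1, the polynucleotide phosphorylase. PNPT1 was first known as a gene induced by type I interferon, and its loss lets double-stranded mitochondrial RNA leak into the cytosol, where it is sensed as if it were viral.

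After IFNβ, PNPT1 rose 3.65-fold, from 19.4 ± 0.528 to 70.8 ± 1.47 FPKM (mean ± S.D., n = 3 per group). None of the other 9 genes rose. TFB2M fell by 27.1%, REXO2 by 14.3%, TFAM by 11.3% and POLRMT by 10.4%, while SUPV3L1, LRPPRC, SLIRP, TFB1M and MTERF1 did not pass the test. FPKM is a count of fragments scaled to the length of the transcript and to the total of the library, so each value is a share of a library. A gene is said to have risen or fallen when limma, fitted to log2(FPKM + 0.1) over all 20716 genes, gave a Benjamini-Hochberg adjusted p under 0.05. By that rule 5 of the 10 genes were called, 1 higher and 4 lower, where 32.7% of all genes tested were called, 15.2% higher and 17.5% lower. All 10 genes had a mean above 1 FPKM. Of the 11996 genes with a mean of at least 1 FPKM, 21.1% were higher and 28.3% lower. A call with at least a 2-fold change was met by PNPT1 alone, against 4.22% of all genes, 3.49% higher and 0.739% lower.

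Libraries held 22848104 to 32915500 fragments. The labels do not say whether replicates were separate cultures or platings on different days, so the p-values measure the spread between these libraries. IFNβ had acted in every treated library: the antiviral effector IFIT1 was at 0.916 ± 0.0380 FPKM untreated and 413 ± 3.30 FPKM treated, and ISG15, IRF9 and MX1 also rose by more than 2-fold. All 8 mesenchymal marker genes were present, with group means of 43.5 to 468 FPKM, whereas the 3 epithelial and 4 leukocyte markers had means of at most 0.0385 FPKM and the 3 endothelial markers at most 0.285 FPKM. Of the mesenchymal genes 1 rose, 4 fell and 3 did not pass, from FN1 (log2 fold change 0.51) to VIM (-0.29). In RNA from whole cultures, fewer cells of a kind and less RNA per cell cannot be told apart.

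The promoter of PNPT1 is shown because this gene had the only large change, with those parts of the POLRMT, TFAM and TFB1M promoters that carry motifs of the nuclear regulators of mitochondrial genes. The sequences are from RefSeq on GRCh38.p14, which supplied all 10 genes, and each window of 250 bases before the transcription start was searched on both strands. The motifs searched were the interferon-stimulated response element (ISRE, GAAANNGAAA), the gamma-activated site (GAS, TTCNNNGAA), the NRF1 motif (GCGCANGCGC) and the ETS motif bound by GABPA (CCGGAAG). A form of the ISRE with a gap of 1 base (GAAANGAAA) was added after the PNPT1 sequence had been read. Capitals mark matches, and each sequence is written 5′ to 3′ on the strand of its gene, all minus except TFAM.

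PNPT1, chr2:55693911-55694094, minus strand, 250 to 67 bases before the start, with a GAS match in capitals: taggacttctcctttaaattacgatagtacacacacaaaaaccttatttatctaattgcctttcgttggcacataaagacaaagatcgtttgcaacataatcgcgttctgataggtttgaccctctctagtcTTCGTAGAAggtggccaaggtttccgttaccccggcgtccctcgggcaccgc
PNPT1, chr2:55693890-55693919, minus strand, with the 1-base-gap form of the ISRE in capitals: gggcaccgcgGAAACGAAActccatcaggc
POLRMT, chr19:633605-633787, minus strand, with an ETS match in capitals: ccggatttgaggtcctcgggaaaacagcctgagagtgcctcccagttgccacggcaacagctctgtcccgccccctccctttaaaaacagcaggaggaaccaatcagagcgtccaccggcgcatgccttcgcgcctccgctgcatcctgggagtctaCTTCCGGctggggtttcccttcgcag
POLRMT, chr19:633539-633568, minus strand, with a pair of overlapping NRF1 matches in capitals: ggcgcggGCGCATGCGCAGGCGCgggccgg
TFAM, chr10:58385337-58385366, plus strand, with an NRF1 match in capitals: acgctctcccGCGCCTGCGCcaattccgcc
TFB1M, chr6:155314494-155314734, minus strand, with an NRF1 match followed by an ETS match in capitals: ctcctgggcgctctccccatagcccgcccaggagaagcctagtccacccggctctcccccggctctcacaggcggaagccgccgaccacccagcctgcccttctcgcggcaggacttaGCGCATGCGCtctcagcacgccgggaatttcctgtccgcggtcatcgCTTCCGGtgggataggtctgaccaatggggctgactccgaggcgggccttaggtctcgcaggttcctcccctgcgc

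The strict ISRE was in none of the 10 promoters and in 3.02% of the 35116 RefSeq windows of the same length. The 1-base-gap form lay 65 to 57 bases before the start of PNPT1 and was also in the window of LRPPRC, whose level did not pass the test; 2.69% of all windows held it. The GAS motif lay 118 to 110 bases before the PNPT1 start and was found in SUPV3L1 as well, against 6.57% of windows. NRF1 matches were in POLRMT, TFAM and TFB1M (5.07% of windows) and ETS matches in POLRMT, TFB1M, SLIRP and MTERF1 (8.52% of windows). TFB2M and REXO2, which fell, held none of the 5 motifs as spelled, and looser forms of the NRF1 and ETS motifs were not searched. A match of letters is a description and not a binding site. GENCODE 29 places some transcript starts further upstream than RefSeq does, so that 66 bases of the PNPT1 window, 67 of the POLRMT window and all 250 of the TFAM window lie in an annotated first exon; there only 30 bases around each match are printed.

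The decay genes PNPT1, SUPV3L1 and REXO2 went different ways. PNPT1 (ENSG00000138035) lies on the minus strand of chromosome 2 from 55634265 to 55693910 (GRCh38, GENCODE 29) and has 26 merged exons. Its level was 19.8, 18.8 and 19.6 FPKM in the 3 untreated libraries and 72.5, 69.8 and 70.2 FPKM in the 3 treated ones. The groups were far apart, and each stayed within a few percent of its own mean. The log2 fold change was 1.86 (95% confidence interval 1.80 to 1.93, SE 0.03, adjusted p = 1.0e-07 by limma), above that of 98.4% of all genes tested and at rank 327 of 20716 from the highest. Between 2392 and 11811 fragments stood behind each value. Near-identical copies could take fragments from a gene, but of 8 pseudogenes of the 10 genes 6 were listed at 0 in every library, PNPT1P1 held 1 fragment in 1 library, and POLRMTP1 was at 0.123 to 0.285 FPKM.

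SUPV3L1 (chromosome 10, 69180232 to 69209099, plus strand), the helicase that works with PNPT1, was at 8.98, 8.62 and 8.64 FPKM in untreated cells and at 8.63, 9.13 and 8.75 FPKM after IFNβ. The values of both groups were interleaved. Its log2 fold change was 0.01 with a 95% interval of -0.07 to 0.09 (adjusted p = 0.80, limma). REXO2 (chromosome 11, 114439386 to 114450279, plus strand), the oligoribonuclease that clears the short fragments left by other nucleases, was at 20.3, 19.3 and 17.6 FPKM untreated and at 16.9, 16.2 and 15.9 FPKM treated. All treated libraries lay below all untreated ones, by a narrow margin. An overlapping gene on the same strand, AP002373.1, shares 161 of its exonic bases and was at no more than 0.110 FPKM. The log2 fold change of REXO2 was -0.22 (interval -0.35 to -0.09, SE 0.05, adjusted p = 0.022, limma). REXO2 lost its call when untreated replicate 2, IFNβ replicate 2 or IFNβ replicate 3 was left out. It also lost it in the fit without a mean-variance trend, and adjusted p in these 4 limma fits was 0.060 to 0.073.

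**Figure D1:**
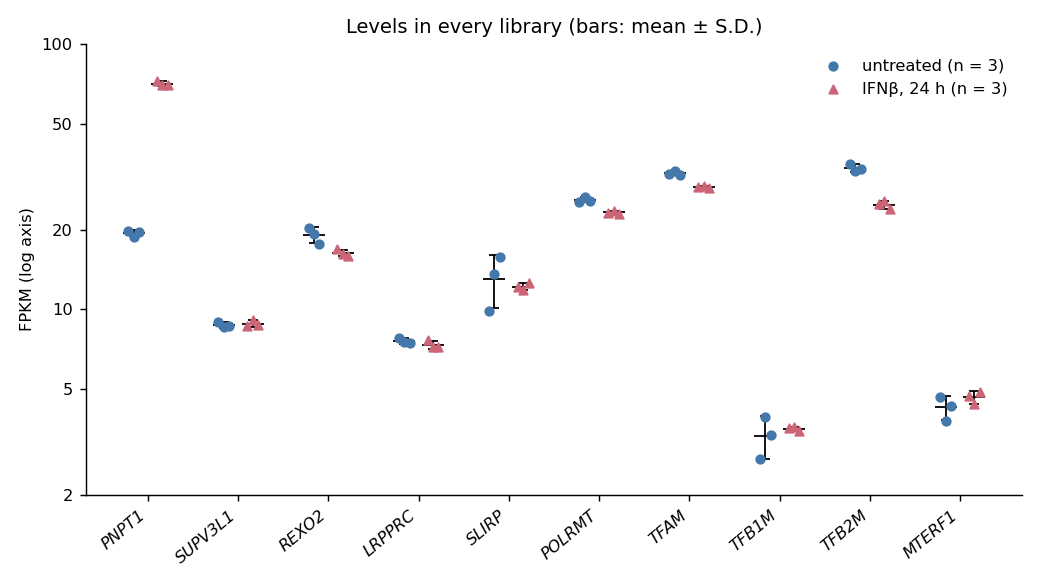
FPKM (log axis) of the 10 genes in each of the 3 untreated and 3 IFNβ-treated libraries; points are libraries and bars are mean ± S.D. PNPT1 stands at 18.8 to 19.8 FPKM untreated and 69.8 to 72.5 FPKM treated, and the untreated points of SLIRP and TFB1M are the most scattered.

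The mRNA-binding partners LRPPRC and SLIRP did not pass the test. LRPPRC (chromosome 2, 43886508 to 43996005, minus strand), a pentatricopeptide-repeat protein whose deficiency causes the French-Canadian form of Leigh syndrome, was at 7.82, 7.51 and 7.50 FPKM untreated and at 7.66, 7.24 and 7.20 FPKM treated. Its log2 fold change was -0.05 (interval -0.14 to 0.04, adjusted p = 0.40, limma). SLIRP (chromosome 14, 77708071 to 77761104, plus strand), the small RNA-binding protein that LRPPRC carries, was at 9.88, 13.6 and 15.7 FPKM untreated and at 12.1, 11.8 and 12.6 FPKM treated. The treated libraries were close together and fell inside the untreated range. The scatter of its 594 to 1361 untreated fragments was wide, with a chi-square of 45.1 per degree of freedom among the 3 untreated libraries against 0.880 among the treated ones. The log2 fold change of SLIRP was accordingly loose, at -0.07 (interval -0.46 to 0.31, adjusted p = 0.78). Without untreated replicate 1 it was -0.26 with adjusted p = 0.041, and without untreated replicate 3 it was 0.07.

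SLIRP and TFB1M were both lowest in untreated replicate 1, the library with the fewest fragments. In that library the median log2 ratio to untreated replicate 3 was -0.07 over 1190 genes with a length under 1000 bases. It was -0.01 over genes of 1000 to 3000 bases and 0.0098 over longer ones. By the lengths used for these groups SLIRP, at 2631 bases, was in the middle one and TFB1M, at 4111 bases, in the longest. The part of length in their values was not tested. SLIRP shares 118 exonic bases, 4.48% of its exons, with SNW1 on the opposite strand, which was at 38.8 to 44.7 FPKM. Whether counting used the strand is not given in the sources used here, so fragments from that stretch cannot be assigned to either gene. TFB1M shares 215 exonic bases (7.86%) with TIAM2 on the opposite strand, at 0.458 to 0.562 FPKM.

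Of the 3 proteins that start transcription, all had lower transcript levels after IFNβ. TFB2M (chromosome 1, 246540560 to 246566324, minus strand), the factor that melts the promoter, was at 35.3, 33.1 and 33.8 FPKM untreated and at 24.9, 25.7 and 23.9 FPKM treated. The groups were widely separated. Its log2 fold change was -0.46 (interval -0.54 to -0.37, SE 0.04, adjusted p = 2.1e-04, limma), and 9.65% of all genes tested had a lower one. TFAM (chromosome 10, 58385022 to 58399221, plus strand), which also packages mitochondrial DNA into nucleoids, was at 32.5, 33.3 and 32.2 FPKM untreated and at 29.03, 29.06 and 28.73 FPKM treated. Its decrease was small but larger than the spread of either group, with a log2 fold change of -0.17 (interval -0.22 to -0.13, SE 0.02, adjusted p = 0.0010). POLRMT (chromosome 19, 617224 to 633604, minus strand) was at 25.5, 26.5 and 25.7 FPKM untreated and at 23.2, 23.6 and 22.9 FPKM treated. The groups did not overlap, and the log2 fold change was -0.16 (interval -0.21 to -0.10, SE 0.02, adjusted p = 0.0029). The falls of TFAM and POLRMT sit well inside the range of ordinary changes in this dataset, since 28.8% and 30.6% of all genes had a lower log2 fold change.

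TFB1M and MTERF1 did not pass the test. TFB1M (chromosome 6, 155257509 to 155314493, minus strand) is related to TFB2M but serves mainly to methylate the small-subunit rRNA of the mitochondrial ribosome. It was at 2.73, 3.95 and 3.38 FPKM untreated and at 3.57, 3.61 and 3.49 FPKM treated, with 256 to 482 fragments per library. The treated values lay inside the untreated range, and the log2 fold change was 0.10 (interval -0.21 to 0.40, adjusted p = 0.61, limma); without untreated replicate 1 it was -0.04. MTERF1 (chromosome 7, 91692008 to 91880720, minus strand), a DNA-binding protein that can stop transcription behind the rRNA genes, was at 4.69, 3.81 and 4.33 FPKM untreated and at 4.74, 4.40 and 4.88 FPKM treated. Its groups overlapped, with a log2 fold change of 0.13 (interval -0.07 to 0.33, adjusted p = 0.30). Counted over the 10 genes, the untreated and treated values did not overlap for 5, the same 5 that were called, where 46.6% of all genes tested had groups without overlap.

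**Figure D2:**
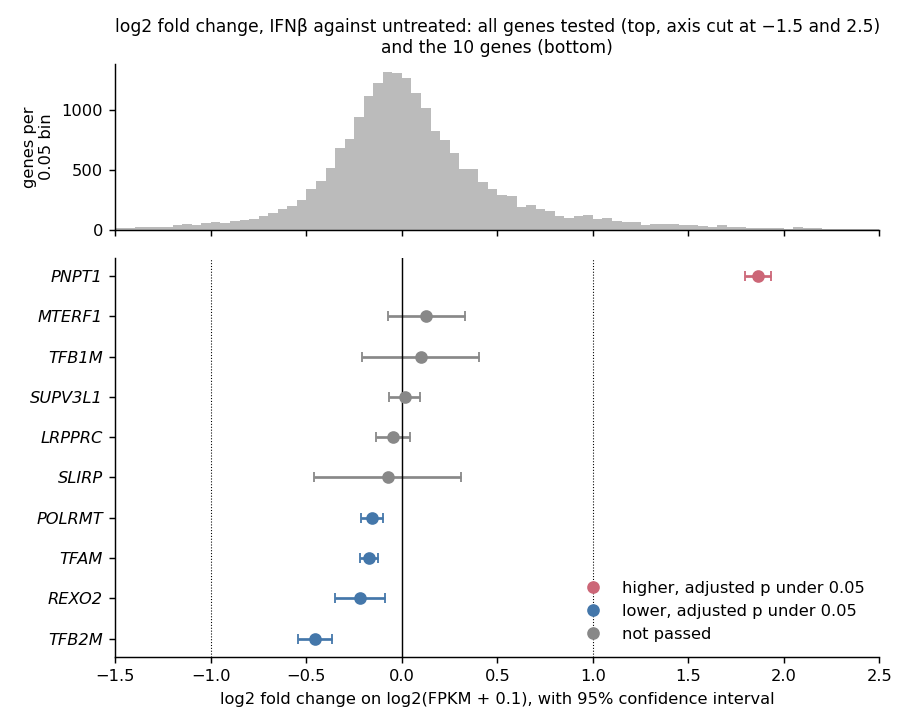
Top, number of tested genes in each 0.05-wide bin of log2 fold change (IFNβ against untreated); bottom, log2 fold change of each of the 10 genes with its 95% confidence interval. PNPT1 at 1.86 lies beyond the dotted 2-fold line, and the other 9 genes lie between -0.46 and 0.13.

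The order of levels changed at the top. In untreated cells TFB2M and TFAM were highest and overlapped in range, followed by POLRMT, then PNPT1 and REXO2, which overlapped, then SLIRP, SUPV3L1 and LRPPRC, and MTERF1 and TFB1M, which overlapped. After IFNβ, PNPT1 moved from the fourth place to the first and TFB2M from the first to the third, behind TFAM, with no overlap between neighbours in that order. PNPT1 made up 11.5% of the summed FPKM of the 10 genes in untreated cells and 35.3% in treated cells. Levels are compared between genes per length, and the lengths implied by the deposited values differed most from those of GENCODE 29 for LRPPRC, at 34689 against 9760 bases, and TFB1M, at 4111 against 2736 bases. With GENCODE 29 lengths LRPPRC would stand at 27.1 and 26.2 FPKM, above POLRMT in both groups and above TFB2M in treated cells, and TFB1M at 5.04 and 5.34 FPKM, above MTERF1. PNPT1 would then move from the fifth place to the first and TFB2M from the first to the fourth. Fold changes do not depend on the length.

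Ratios of partner genes within each library were tested by an exact two-sided permutation test, which with 3 against 3 libraries cannot give a p under 0.10. The ratio of PNPT1 to SUPV3L1 was 2.20, 2.18 and 2.26 in untreated libraries and 8.40, 7.65 and 8.02 in treated ones. It was higher in every treated library, with a difference of 1.85 in the log2 ratio (exact permutation p = 0.10, the smallest possible, 0.15 after adjustment over the 3 ratios). The ratio of TFB2M to its relative TFB1M was 12.96, 8.38 and 10.0 untreated and 6.97, 7.11 and 6.86 treated. The difference in this log2 ratio was -0.55 (exact permutation p = 0.10, adjusted 0.15). It was -0.39 without untreated replicate 1 and -0.70 without untreated replicate 2. The ratio of LRPPRC to SLIRP differed by 0.03 on the log2 scale (exact permutation p = 0.90), with the untreated libraries spread from -1.06 to -0.33 around the treated ones at -0.80 to -0.65.

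**Figure D3:**
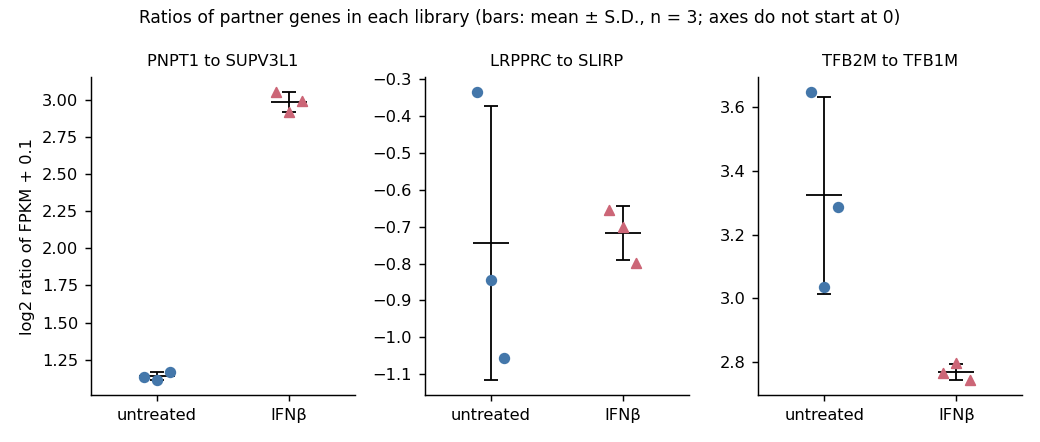
log2 ratio of 2 partner or related genes (FPKM + 0.1) in each library, with mean ± S.D. (n = 3). The PNPT1 to SUPV3L1 ratio moves from 1.14 ± 0.0283 to 2.99 ± 0.0672, the LRPPRC to SLIRP ratio from -0.75 ± 0.372 to -0.72 ± 0.0734, and the TFB2M to TFB1M ratio from 3.32 ± 0.309 to 2.77 ± 0.0263.

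The genes beside PNPT1 on chromosome 2 did not share its rise. PPP4R3B, a regulatory subunit of protein phosphatase 4 that lies 15385 bases away (55547292 to 55618880), fell from 14.0 ± 0.150 to 12.5 ± 0.0785 FPKM (log2 fold change -0.16, adjusted p = 0.0017 by limma). EFEMP1, an extracellular matrix glycoprotein gene 172057 bases away on the other side (55865967 to 55924139), rose from 133 ± 1.11 to 151 ± 1.25 FPKM, a log2 fold change of 0.18 (adjusted p = 3.5e-04). Among 11995 other genes with a mean of at least 1 FPKM, the profiles nearest to that of PNPT1 over the 6 libraries, by Euclidean distance of log2 values centred on the untreated mean, were those of TMEM62 (0.110), LGALS3BP (0.139), MOV10 (0.155), TRIM5 (0.178) and B2M (0.178). Their log2 fold changes were 1.83, 1.93, 1.83, 1.77 and 1.94. Closeness to the value of PNPT1 follows from the way these genes were picked. MOV10 is an RNA helicase that restricts retroviruses, TRIM5 binds retroviral capsids, LGALS3BP is a secreted glycoprotein and B2M is the light chain of class I histocompatibility molecules. Their levels spanned 5.39 FPKM for TMEM62 to 141 FPKM for B2M in untreated cells, since the measure compares the change from the untreated mean and not the level.

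**Figure D4:**
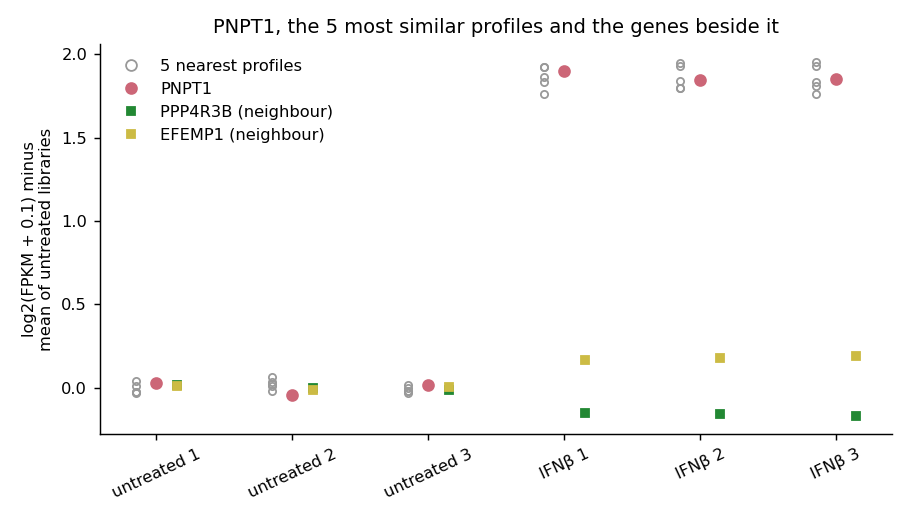
log2(FPKM + 0.1) minus the untreated mean, in each of the 6 libraries, for PNPT1, the 5 genes with the nearest profile and the protein-coding gene on either side of it. PNPT1 and the 5 genes lie between 1.7 and 2.0 in the treated libraries, while PPP4R3B and EFEMP1 stay within 0.2 of 0.

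Of 54 further nuclear genes of mitochondrial RNA metabolism, 1 rose and 13 fell, 1.85% and 24.1% of the list, and none of them by 2-fold. Their median log2 fold change was -0.08, and that of the 10 genes was -0.06. Over the 11996 genes with a mean of at least 1 FPKM the median was -0.03, with 21.1% higher and 28.3% lower. The number of the 54 that fell was 7 without IFNβ replicate 3 and 8 without untreated replicate 3. It was 17 with limma-voom on recovered fragments and with a mean of at least 1 FPKM, and 18 with quantile normalization.

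Among 12 genes of transcription and the nucleoid none rose and 2 fell, or 1 without any one of IFNβ replicate 1, IFNβ replicate 3 and untreated replicate 3. The 2 are 16.7% of the list, against 28.3% of genes with a mean of at least 1 FPKM. RNASEH1, the enzyme that removes RNA from RNA:DNA hybrids in the nucleus and in mitochondria, went from 13.4 ± 0.151 to 9.68 ± 0.218 FPKM, a log2 fold change of -0.47 (adjusted p = 5.4e-05 by limma), and the mitochondrial topoisomerase TOP1MT fell from 3.79 ± 0.127 to 3.30 ± 0.0619 FPKM. The highest value of the list, 0.07 for POLG, the catalytic subunit of the mitochondrial DNA polymerase, did not pass. Among 13 genes listed under precursor cleavage, not all of which cut RNA, 4 fell (30.8%, against 28.3% of genes with a mean of at least 1 FPKM) and none rose. These were PRORP, the nuclease of mitochondrial RNase P (-0.24), and the RNA-binding FASTK family members FASTK (-0.22), FASTKD1 (-0.20) and FASTKD3 (-0.18), and the highest value was 0.06 for ELAC2, which trims tRNA 3′ ends and did not pass. Without IFNβ replicate 3 or untreated replicate 1, 2 of the 13 fell.

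No gene of the 7 for RNA tails, surveillance and decay passed in the test used here. Of genes with a mean of at least 1 FPKM, 21.1% rose and 28.3% fell. 1 fell without IFNβ replicate 1 or IFNβ replicate 2, with quantile normalization and with a mean of at least 1 FPKM, and 2 fell with limma-voom on recovered fragments and with a replicate block. ENDOG, a mitochondrial nuclease, was at 6.57, 6.56 and 7.30 FPKM untreated and at 5.93, 4.20 and 5.38 FPKM treated, with a log2 fold change of -0.40 and an adjusted p of 0.052. It had only 120 to 275 fragments per library. The highest value was 0.05 for PDE12, which removes poly(A) from mitochondrial mRNAs and also degrades 2′-5′ oligoadenylates, the second messenger of an interferon-induced pathway; PDE12 was at 12.1 ± 0.424 and 12.6 ± 0.619 FPKM. MTPAP, the poly(A) polymerase that PDE12 opposes, was at 4.24 ± 0.158 and 4.38 ± 0.299 FPKM (adjusted p = 0.63, limma).

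In the list of 22 genes for rRNA and tRNA modification and ribosome assembly, 1 rose and 7 fell, or 4 without any one of IFNβ replicate 1, IFNβ replicate 3 and untreated replicate 3. The 1 and the 7 are 4.55% and 31.8% of the list, against 21.1% and 28.3% of genes with a mean of at least 1 FPKM. NSUN4, which methylates the small-subunit rRNA and joins the ribosomal subunits, rose from 3.57 ± 0.141 to 4.41 ± 0.184 FPKM (log2 fold change 0.30, adjusted p = 0.0050 by limma). MTO1, which modifies tRNA wobble bases, had the lowest value and fell from 2.23 ± 0.125 to 1.72 ± 0.0379 FPKM (-0.36, adjusted p = 0.0067). TRMT5, PUS1, NGRN, GTPBP3, TRMT61B and TRMU also fell, by 0.15 to 0.30 on the log2 scale.

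Of 11 translation factors 1 rose (9.09%) and 4 fell (36.4%), where 15.2% of all genes tested rose and 17.5% fell. At a mean of at least 1 FPKM the shares of genes were 21.1% and 28.3%. Without untreated replicate 1, 2 rose. GFM2, a GTPase that recycles mitochondrial ribosomes, rose by 0.23 on the log2 scale, whereas its partner in recycling, MRRF, fell from 5.54 ± 0.160 to 4.21 ± 0.102 FPKM (-0.39, adjusted p = 5.8e-04 by limma). The elongation factor TUFM, the most abundant transcript of the list at 163 ± 2.45 FPKM, fell to 146 ± 1.04 FPKM, and MTIF2 and GFM1 fell by 0.26 and 0.13 on the log2 scale. TSFM, whose log2 fold change of -0.43 was the lowest, was at 0.138 and 0.0763 FPKM and did not pass.

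Of 7 nuclear regulators of mitochondrial genes 4 fell (57.1%) and none rose, where 17.5% of all genes tested fell and 15.2% rose. Genes with a mean of at least 1 FPKM fell in 28.3% and rose in 21.1% of cases. NRF1, whose motif is printed above for POLRMT, TFAM and TFB1M, was at 6.27, 6.58 and 6.03 FPKM untreated and at 4.41, 4.33 and 4.37 FPKM treated. Every treated library lay below every untreated one, with a log2 fold change of -0.51 (interval -0.61 to -0.42, SE 0.04, adjusted p = 2.2e-04 by limma). The coactivator gene PPARGC1B fell from 2.82 ± 0.0751 to 2.17 ± 0.0687 FPKM (-0.37), GABPA by 0.14 and PPRC1 by 0.10 on the log2 scale. The count of 4 became 2 when any of the libraries other than untreated replicate 2 was left out. PPARGC1A had the highest value, 0.32, at 0.364 and 0.479 FPKM, and did not pass.

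The RNA exosome is the 3′-to-5′ nuclease complex of the nucleus and cytosol and shares the ring architecture of PNPT1. Of its 12 genes 2 rose (16.7%) and 5 fell (41.7%), where 15.2% of all genes tested rose and 17.5% fell. With a mean of at least 1 FPKM, 21.1% of genes rose and 28.3% fell. EXOSC10, a catalytic subunit of the nuclear complex, rose from 15.8 ± 0.292 to 18.4 ± 0.263 FPKM (log2 fold change 0.22, adjusted p = 7.8e-04 by limma) and EXOSC9, of the ring, by 0.16, while EXOSC3, of the cap, fell by 0.25 and EXOSC2, EXOSC5, EXOSC8 and DIS3 fell by 0.14 to 0.20. No exosome gene came near the 3.65-fold rise of PNPT1. The counts were 1 and 3 without IFNβ replicate 2 or IFNβ replicate 3, and the number that fell was 3 without untreated replicate 3.

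Of the 13 mRNAs of the mitochondrial genome itself 1 rose, MT-CO1 by 0.21 on the log2 scale (2 rose without untreated replicate 1), and 7 fell, with MT-ND6, the only one read from the other strand, lowest at 555 ± 99.1 and 369 ± 19.6 FPKM (-0.57, adjusted p = 0.017 by limma). These are 7.69% and 53.8% of the list, against 15.2% and 17.5% of all genes tested. They compare with 21.1% and 28.3% of genes with a mean of at least 1 FPKM. With quantile normalization the number of mitochondrial mRNAs that fell was 3. The rRNAs MT-RNR1 and MT-RNR2 fell past 2-fold, with log2 fold changes of -1.63 and -1.42. Libraries were made after mRNA enrichment, so these values cover the RNA that passed that step, and its part in them was not tested.

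**Figure D5:**
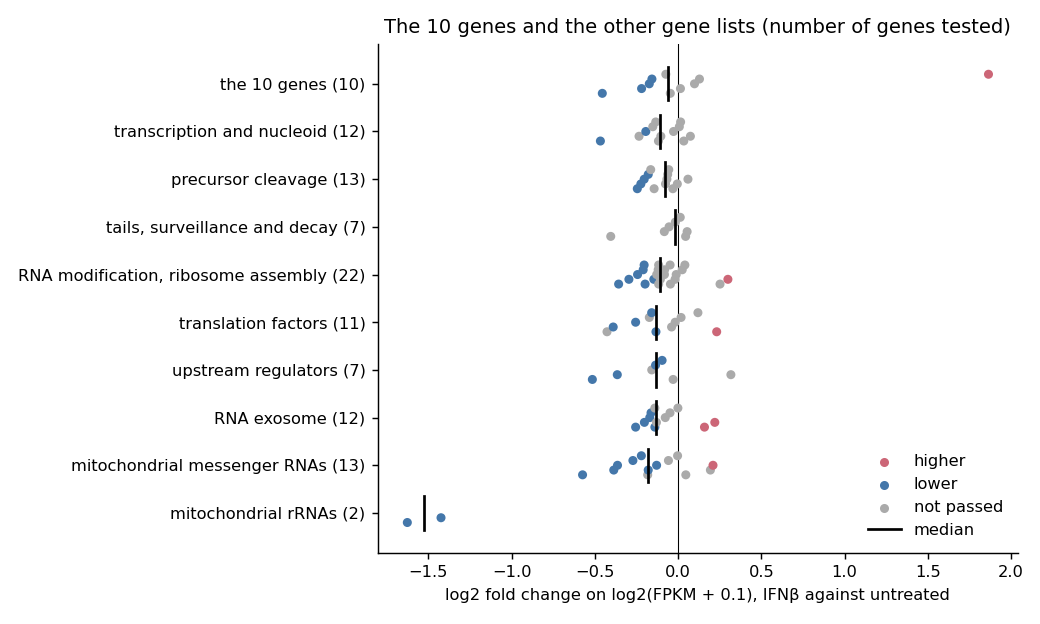
log2 fold change (IFNβ against untreated) of every tested gene in 10 lists, with the number of genes tested in parentheses and a black bar at the median; colours mark genes that rose, fell or did not pass the test. PNPT1 is the only point above 1, the 2 mitochondrial rRNAs are the only points below -1, and the remaining points lie between -0.57 and 0.32.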

How the data were processed

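The authors deposited 1 merged table of FPKM values for 6 libraries of mRNA-enriched, paired-end reads from HT1080 cells. Per the labels' processing notes, fastp, HISAT2, StringTie and GRCh38 were used; versions, annotation and strand setting are not given in the sources used here. Fragments were recovered as FPKM times length times library total, taken as whole within 0.01. The GENCODE 29 length gave whole fragments for 17101 of the 35303 genes above 0. For 18200 others the smallest length that gave whole fragments was used, so their recovery is no check of the length. No length was found for 2 genes. Of the 10 genes, SLIRP alone had the GENCODE 29 length. The recovered depth was 22848104 to 32915500 fragments. Genes with a mean of at least 0.1 FPKM were fitted on log2(FPKM + 0.1) with limma 3.58.1 (R 4.3.3, eBayes with trend), 3 against 3 libraries, with Benjamini-Hochberg adjustment over 20716 genes. limma-voom on the recovered fragments was an alternative, among 16 alternatives in all. The fitting script was tested on simulated data, where it made some false calls and missed some of the changes put in, with values not reported here. Genes named were the 10 genes, the highest and lowest of each list (or those called past 2-fold), the neighbours of PNPT1 and its 5 nearest profiles; the other called members of lists were named after their values were seen. The 10 genes, lists and motifs were chosen with earlier results of these data known. GENCODE 29 supplied positions, and 4436 IDs of the table were not in it. Same-numbered libraries were not treated as pairs. 1 gene of the treatment check is not reported here.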

Additional observations from a re-analysis of the deposited data

How the results depend on the processing

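PNPT1 kept its rise under all 16 alternatives (log2 fold change 1.82 to 1.88), and TFB2M (-0.48 to -0.43), TFAM (-0.18 to -0.16) and POLRMT (-0.17 to -0.14) kept their falls. Leaving out 1 library at a time gave 1 higher and 3 to 5 lower among the 10 genes. It gave 1 to 2 lower in the transcription list, 2 to 3 in the cleavage list, 0 to 1 in the tails and decay list, 4 to 8 in the modification list, 2 to 4 among upstream regulators, 3 to 5 in the exosome, 5 to 9 among mitochondrial mRNAs and 7 to 13 over the 54 genes, and 1 to 2 higher among translation factors, exosome genes and mitochondrial mRNAs. Reversals were SUPV3L1 (-0.0072 with quantile normalization, and -0.0091 to 0.033 when 1 library was left out, the lowest without IFNβ replicate 2), TFB1M (-0.038 to 0.222, the lowest without untreated replicate 1), SLIRP (-0.260 to 0.072, the highest without untreated replicate 3) and the LRPPRC to SLIRP ratio, whose difference ran from -0.13 to 0.23 and was -0.02 without untreated replicate 2, -0.13 without untreated replicate 3 and -0.0049 without IFNβ replicate 1. Without a trend, upstream regulators had 2 lower and the exosome 1 higher and 3 lower. With limma-voom on recovered fragments 7936 genes were called, and 4 transcription genes and 2 tails and decay genes were lower, and 2 translation factors, 1 upstream regulator and 2 mitochondrial mRNAs higher. A mean of at least 1 FPKM gave 1 lower tails and decay gene and 2 higher translation factors, and quantile normalization 1 lower tails and decay gene and 3 lower mitochondrial mRNAs, with the median of all genes moved to -0.06. The causes were not tested.

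Same-numbered libraries correlated in their deviations at 0.053, -0.018 and 0.12, and different-numbered ones at -0.15 to 0.099. These values do not settle whether the numbers mark pairs, and the numbers were not taken as pairs. With the replicate block 6069 genes were called against 6778. There 2 tails and decay genes and 2 upstream regulators were lower, and the 10 genes again gave 1 higher. TFB1M had the fewest fragments of the 10 genes, at 256 to 482. Its untreated libraries spread beyond counting error, with a chi-square of 11.7 per degree of freedom against 0.133 among the treated ones. This chi-square was 9.64 for REXO2 among untreated libraries and 9.05 for LRPPRC among treated ones. The SE of the log2 fold change was largest for SLIRP (0.16, against 0.13 for TFB1M).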
